A study of Homo sapiens with 14 samples.

Results

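Gene deserts were taken as the sequence of chromosomes 1 to 22 and X that lies more than 100 kb from every gene record of GENCODE 44, pseudogenes and noncoding genes included. Peaks of DNA:RNA hybrid immunoprecipitation sequencing (DRIP-seq) in Nalm-6 cells were counted as desert peaks when the whole peak met this distance. Of 1315747 peaks in 8 lists, 62982 were desert peaks. Merged over the lists, they formed 22561 of 479021 regions. Nalm-6 is a human B cell leukemia line. WT cells carried SF3B1 K700K, the unchanged residue, and the isogenic MT cells carried SF3B1 K700E, a hotspot change in this splicing factor. Genomic DNA of each genotype was immunoprecipitated untreated or after treatment with RNase H (RNH1), with 2 libraries in each of the 4 groups. No label says that replicates came from separate cultures, so the spread between them may be technical. A clone behind a line was not named in the labels, and a difference between genotypes cannot be told apart from a difference between lines.

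R-loops form when RNA pairs with the DNA strand it was copied from and displaces the other strand. RNase H removes the RNA of such hybrids, and a peak that remains after treatment is commonly read as not specific to hybrids. R-loops are best known from transcribed genes and their ends. Gene deserts are AT-rich, mostly untranscribed stretches between genes, and those beside centromeres hold tandem satellite repeats.

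Sequences around the summits of the highest regions are shown to make their base composition visible, each with 200 bases of the plus strand of hg38. The first came from a region with a peak in all 4 untreated lists and in no RNH1 list, the next 4 from regions with peaks in both untreated lists of a single genotype and no other list, and the last from a region with a peak in all 8 lists. Capitals mark runs of at least 8 purines or 8 pyrimidines, and in the last sequence the pentamer GGAAT or its complement ATTCC.
All untreated lists, chr10:128606591-128606790: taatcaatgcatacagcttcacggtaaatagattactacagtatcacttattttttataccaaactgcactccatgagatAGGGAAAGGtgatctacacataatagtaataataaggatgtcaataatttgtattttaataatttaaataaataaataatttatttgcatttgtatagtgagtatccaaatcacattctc
Untreated MT, first, chr3:191000234-191000433: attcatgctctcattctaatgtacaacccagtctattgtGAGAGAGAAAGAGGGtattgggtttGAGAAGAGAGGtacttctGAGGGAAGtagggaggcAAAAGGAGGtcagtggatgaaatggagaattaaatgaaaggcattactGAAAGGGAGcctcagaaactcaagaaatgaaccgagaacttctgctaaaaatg
Untreated MT, second, chr18:30064259-30064458: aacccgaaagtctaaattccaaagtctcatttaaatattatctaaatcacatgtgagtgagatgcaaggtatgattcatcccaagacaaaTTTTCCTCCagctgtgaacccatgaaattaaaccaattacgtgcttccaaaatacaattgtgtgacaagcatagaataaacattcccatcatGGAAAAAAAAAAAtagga
Untreated WT, first, chr9:81181036-81181235: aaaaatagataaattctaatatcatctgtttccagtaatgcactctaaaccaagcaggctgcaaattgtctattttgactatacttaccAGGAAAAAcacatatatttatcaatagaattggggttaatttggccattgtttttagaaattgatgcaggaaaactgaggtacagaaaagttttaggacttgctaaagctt
Untreated WT, second, chr18:25638814-25639013: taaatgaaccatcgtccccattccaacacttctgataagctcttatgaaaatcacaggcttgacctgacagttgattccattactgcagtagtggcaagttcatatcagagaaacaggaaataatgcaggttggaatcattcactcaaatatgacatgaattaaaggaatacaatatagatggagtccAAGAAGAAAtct
All lists, chr5:49601993-49602192: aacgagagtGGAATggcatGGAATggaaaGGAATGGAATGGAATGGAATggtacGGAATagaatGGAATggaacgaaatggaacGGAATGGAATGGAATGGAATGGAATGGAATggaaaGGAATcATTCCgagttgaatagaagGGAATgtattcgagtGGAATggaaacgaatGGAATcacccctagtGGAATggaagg

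The 2 windows from regions of untreated MT alone held 5 and 2 runs, of which the longest had 15 and 13 bases, and those of untreated WT alone held 1 run each, of 8 and 9 bases. Runs were counted in these windows and not over the other regions. GC content was 41.5% and 33.5% in the MT windows and 31.5% and 37.0% in the WT windows, so the ranges overlapped. The last window held 20 pentamers, which covered 100 of its 200 bases. GGAAT repeats are the unit of human satellites II and III.

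Desert peaks were found in every library. The untreated WT lists held 6529 and 6783 desert peaks and the untreated MT lists 11173 and 13340. The RNH1 lists held 1902 and 3786 in WT and 9703 and 9766 in MT cells. Each MT count was above each WT count in either treatment, and WT RNH1 replicate 1 stood apart as the shortest list. The mean was 6656 ± 180 (SD, n = 2) in untreated WT and 12256.5 ± 1532 (SD, n = 2) in untreated MT cells, a log2 ratio of 0.88 (SE 0.13). A two-sided exact permutation test gave p = 0.333, the lowest value possible with 2 libraries on each side, and 0.05 is out of reach. For RNH1-treated DNA the log2 ratio was 1.78 (SE 0.50; exact p = 0.333). The whole lists were longer in MT cells as well, with 123582 and 130928 peaks in untreated WT and 253744 and 295970 in untreated MT cells. With all lists cut to one length by their −log10 p, the log2 ratio of desert peaks changed sign, to −0.28 untreated and −0.15 after RNH1.

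The share of a list that lay in deserts was lower in MT cells. Untreated WT lists had 5.28% and 5.18% of their peaks there, and untreated MT lists 4.40% and 4.51%, without overlap. The difference of −0.78 percentage points (SE 0.073; exact permutation p = 0.333) exceeded the spread between replicates. After weighting each list to a common GC distribution, it changed sign to 0.36, from weighted shares of 4.55% and 4.58% (WT) and 4.96% and 4.91% (MT). In RNH1-treated DNA WT lists had 5.46% and 4.89% and MT lists 4.82% and 4.93%, which overlapped (difference −0.30 percentage points, SE 0.29; exact p = 0.667, and 0.36 with the GC weights). It was −0.016 without WT RNH1 replicate 1 and −0.58 without WT RNH1 replicate 2. Within MT cells the share was 4.40% and 4.51% untreated and 4.82% and 4.93% after RNH1, a difference of 0.42 percentage points (SE 0.073; exact p = 0.333). It was 0.14 with lists of equal length and 0.23 at a fold enrichment of at least 4. In WT cells the same difference was −0.058 (SE 0.29; exact p = 1). This WT value was −0.35 with lists of equal length and −0.34 without WT RNH1 replicate 1, and turned positive without WT RNH1 replicate 2 (0.22) and at a distance of 200 kb (0.031).

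**Figure D1:**
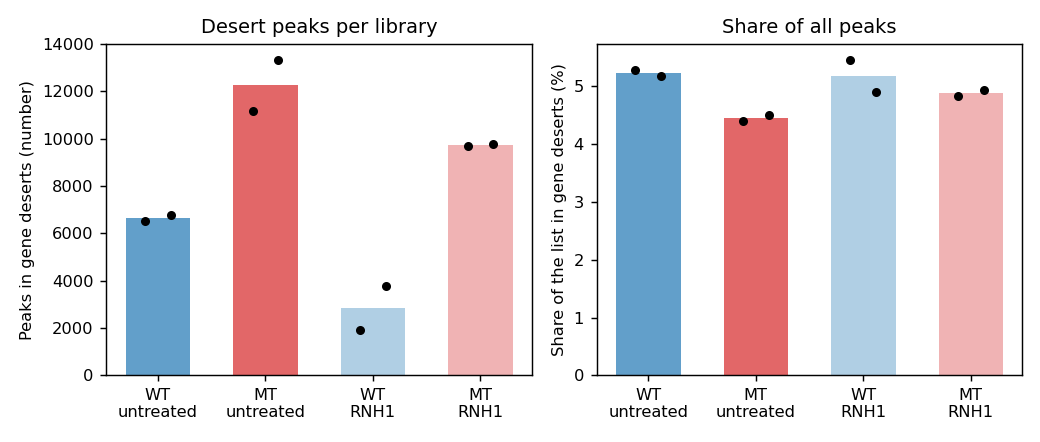
Left, number of desert peaks per library; right, the share of each list in deserts (%). Bars are means of 2 libraries, points are the libraries, and pale bars are RNH1-treated DNA. Counts are higher in MT than in WT in either treatment, while the untreated share is lower, at 4.40% and 4.51% against 5.28% and 5.18%.

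The sign of the difference in peak density between deserts and the rest of the genome changed with satellite sequence. Deserts took up 182 Mb, or 6.27% of the sequence searched, and 64.6 Mb of them was satellite-rich. Over all desert sequence, density was 35.8 and 37.2 peaks per Mb in untreated WT and 61.3 and 73.1 in untreated MT libraries, against 42.9, 45.5, 88.9 and 103.6 in the rest of the genome. The log2 ratio of desert over rest was −0.40 ± 0.14 (SD, n = 4 untreated libraries), negative in 4 of 4 (two-sided exact sign-flip permutation test, p = 0.125, the smallest it allows). It was −0.091 with a distance of 50 kb (exact p = 0.25) and −1.40 with 200 kb. With satellite-rich regions left out, density was 54.7 and 56.9 in untreated WT and 92.5 and 110.7 in untreated MT deserts, and the log2 ratio was 0.20 ± 0.15, positive in 4 of 4 (exact p = 0.125). It was also positive, at 0.13, when distance was taken from protein-coding genes alone. Satellite-rich deserts held 80 and 78 desert peaks in untreated WT and 279 and 293 in untreated MT libraries, that is 1.24, 1.21, 4.32 and 4.54 peaks per Mb. Repeated words, 16-base words found at least 50 times in the genome, made up 44.1% of the words in all deserts and 18.9% in deserts without satellites. Their part in the density was not tested.

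Outside the satellites, desert peaks ran through gene-free sequence at an even rate on most chromosomes. Of 961 gene-free intervals, satellite-rich ones included, 948 had sequence and 896 held a merged region. In intervals free of satellites, chromosomes 1 to 18 and 20 held from 191 to 229.8 merged regions per Mb. Chromosome 21 held 168, chromosome 22 held 75.5 over 0.794 Mb, and X held 94.1 over 11.8 Mb. In untreated WT, X had 17.1 and 18.3 regions with a peak per Mb, against 50.3 or more in WT replicate 1 on chromosomes 1 to 18. Repeated words had a median of 22.5% over X intervals and 24.1% over those of chromosome 22, against 13.7% to 19.2% on the other chromosomes. Their part in the rate was not tested. The MT excess was present on each of the 22 chromosomes with such intervals, with ratios of MT over WT from 1.58 on chromosome 14 to 2.76 on chromosome 20.

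**Figure D2:**
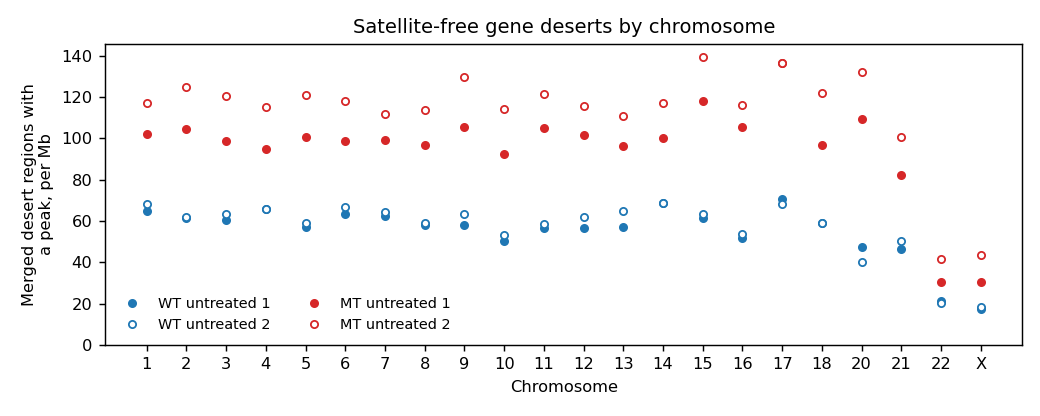
Merged desert regions with a peak per Mb of satellite-free gene-free sequence, by chromosome, in the 4 untreated libraries; chromosome 19 has no such interval. Most chromosomes sit close together within a library, while 22 and X lie lower, and both MT libraries lie above both WT libraries on each chromosome drawn.

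Among the 23 satellite-free intervals with at least 500 kb of sequence, the median was 208 merged regions per Mb. The highest rate was 237 per Mb on chromosome 6 from 90687087 to 91290312, in the gap between MAP3K7, which encodes a kinase of cytokine signalling, and a long noncoding RNA gene. Its 143 regions included 42 and 45 with a peak in untreated WT and 84 and 101 in untreated MT libraries. The next were 227 per Mb on chromosome 3 from 5356762 to 5862841, 226 on chromosome 11 from 36797868 to 37602124, 225 on chromosome 4 from 60138587 to 60650574 and 222 on chromosome 1 from 104326679 to 104898405. The lowest rate was 33.3 per Mb on X from 90697341 to 91207780, where 24.0% of words were repeated. Then came 119 on X from 98992062 to 99556996 and 170.2 on chromosome 13 from 81791073 to 82678207. Repeated words made up 19.6% and 16.8% of the words there. The highest intervals had from 11.9% (chromosome 6) to 21.8% (chromosome 1), so the ranges overlapped. With satellites included, 6 intervals with at least 500 kb of sequence, at or near the centromeres of chromosomes 2, 9, 13, 14, 20 and 22, held 0 regions, and 86.8% to 95.9% of their words were repeated. A value of 0 there says only that no list held a peak.

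Inside deserts, density was lower at greater distances from genes, and satellite sequence was more frequent there. Between 100 and 200 kb from a gene, untreated WT libraries had 53.0 and 55.3 and untreated MT libraries 91.3 and 108.9 peaks per Mb. Between 200 and 400 kb they had 44.7 and 46.0, and 74.3 and 89.5. Beyond 400 kb, where 56.0 Mb remained, they had 2.07, 2.03, 3.87 and 4.30. Satellite-rich regions made up 4.24%, 20.03% and 96.1% of the sequence at these distances. With them left out the densities were 55.0, 57.4, 94.3 and 112.5 up to 200 kb, 54.8, 56.5, 88.8 and 108.02 up to 400 kb, and 43.4, 42.9, 63.9 and 74.4 over the 2.19 Mb beyond. Nearer than the desert limit, between 50 and 100 kb, density was 50.8, 52.7, 96.6 and 113 with satellites included. About 3 in 4 desert peaks of each list, 73.5% to 75.3%, lay within 200 kb of a gene. At the threshold itself, peaks from 80 to 100 kb away had a median GC content of 35.4% and 35.7% in untreated WT and 40.3% and 39.9% in untreated MT libraries, and peaks from 100 to 120 kb away 35.3%, 35.5%, 40.2% and 39.6%.

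Desert peaks were poorer in GC than other peaks and richer in GC in MT than in WT cells. Untreated WT lists had a median GC content of 34.9% and 35.2%, and untreated MT lists of 39.9% and 39.3%. After RNH1 the medians were 35.3% and 36.1% for WT and 38.8% and 38.7% for MT lists. No MT library overlapped a WT library, and the untreated difference was 4.54 percentage points (SE 0.32; two-sided exact permutation p = 0.333). Against other peaks of the same library, desert peaks were lower by 2.12 ± 0.30 percentage points (SD, n = 4) in 4 of 4 untreated libraries (exact sign-flip p = 0.125). Deserts as sequence held 36.8% GC without satellites and the rest of the genome 41.1%.

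Outside satellites, the MT excess held in GC-richer windows and turned around in AT-rich ones. In desert windows of 400 bases with under 30% GC, untreated WT libraries had 63.8 and 62.1 peaks per Mb of that class and untreated MT libraries 7.33 and 12.3, a log2 ratio of −2.73 (SE 0.37). Between 30% and 35% GC, WT libraries had 72.7 and 72.2 and MT libraries 50.8 and 70.0 (log2 ratio −0.28, SE 0.23). The order was the other way between 40% and 45%, with 45.5 and 48.3 (WT) against 169.6 and 195 (MT) (log2 ratio 1.96, SE 0.11). At 50% or more the log2 ratio was 2.69 (SE 0.16), from 11.8 and 14.8 (WT) against 86.0 and 84.1 (MT). Exact permutation tests gave p = 0.333 in each of the 6 untreated classes. In the rest of the genome the same log2 ratios were −2.47 under 30% and 1.89 at 50% or more, so the tilt was also present outside deserts. RNH1-treated libraries had it too, at −1.14 and 2.35 in deserts. What set the composition of the libraries was not tested.

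**Figure D3:**
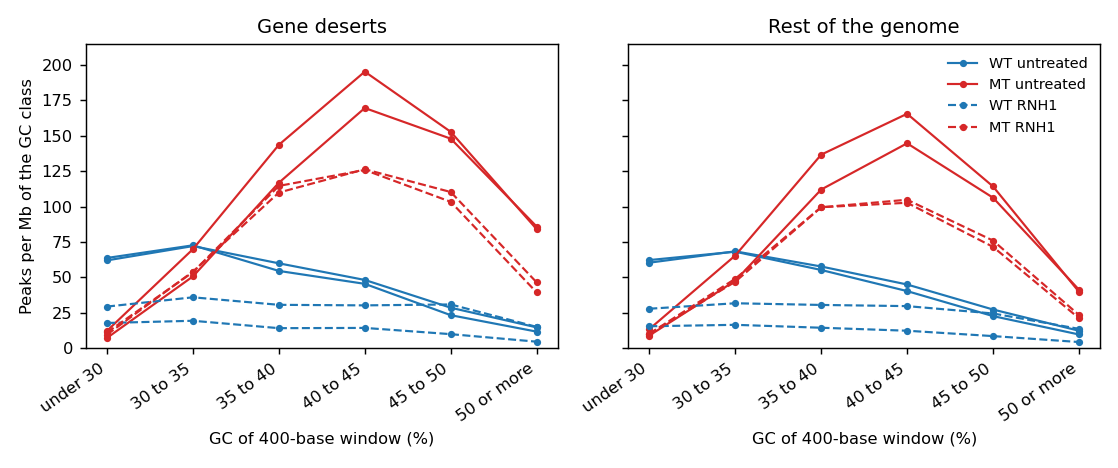
Peaks per Mb of each GC class (400-base windows, satellites left out) in deserts and in the rest of the genome, 1 line per library. Untreated WT lines fall above 35% and MT lines rise to a maximum between 40% and 45%, in both compartments, and the untreated genotypes change order around 35%.

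Within GC classes from 30% upwards, desert density was above that of the rest of the genome in every untreated library, save WT replicate 1 between 35% and 40% (log2 ratio −0.018). The log2 ratio of desert over rest was 0.089 ± 0.0088 (SD, n = 4) between 30% and 35% GC and 0.18 ± 0.064 between 40% and 45%, positive in 4 of 4 untreated libraries each (exact p = 0.125). At 50% or more it was 0.27 and 0.25 (WT) and 1.05 and 1.08 (MT). Under 30% it was 0.034 and 0.038 (WT) and −0.30 and −0.13 (MT).

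Restriction fragments were the next feature, because the DNA was cut with 5 enzymes, HindIII, EcoRI, BsrGI, XbaI and SspI, before immunoprecipitation. Satellite-rich regions were left out of all values on sites and fragments. Their sites are AT-rich, and without satellites a site occurred every 414 bp in deserts and every 518 bp in the rest of the genome. SspI, whose site is AATATT, alone cut 11.3 times per 10 kb in deserts and 8.06 times elsewhere. Few peaks held a site, in deserts or elsewhere. In untreated libraries 96.3% and 96.2% of WT and 94.9% and 95.3% of MT desert peaks held no site, at median widths of 440, 445, 424 and 427 bp. The share was 97.2%, 96.9%, 95.4% and 95.7% for other peaks, so that desert peaks were lower by 0.62 ± 0.18 percentage points (SD, n = 4) in 4 of 4 libraries (exact sign-flip p = 0.125). The fragment that held the summit had a median length of 1019 and 1014 bp in WT and 1210 and 1184 bp in MT libraries, whereas the median desert base lay in a fragment of 738 bp.

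Outside satellites, peak density was lowest on short fragments. On desert fragments under 500 bp, which hold 32.4% of desert bases, untreated WT libraries had 11.6 and 13.5 and untreated MT libraries 8.27 and 10.5 peaks per Mb. On fragments of 2000 to 3999 bp they had 78.9 and 80.01, and 196 and 221. The second density was 6.80 and 5.93 times the first in WT and 23.7 and 21.0 times in MT deserts, against 4.57, 4.42, 12.4 and 12.7 in the rest of the genome. On fragments of 4000 bp or more density was lower again, at 32.1 and 41.6 (WT) and 77.5 and 102.1 (MT), from only 17, 22, 41 and 54 peaks in 0.529 Mb. MT over WT had a log2 ratio of −0.42 (SE 0.20) on the shortest class and 1.39 (SE 0.085) on that of 2000 to 3999 bp (exact permutation p = 0.333 each). On that longer class deserts exceeded the rest of the genome by a log2 ratio of 0.65 ± 0.050 (SD, n = 4), in 4 of 4 libraries (exact sign-flip p = 0.125). Fragment length and GC content both depend on AT-rich sites, and their parts in these densities were not tested.

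**Figure D4:**
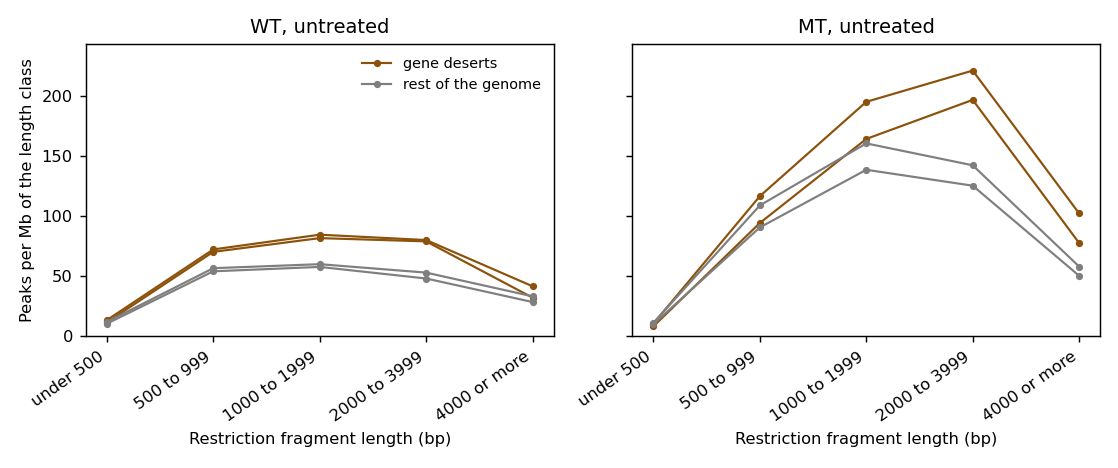
Peaks per Mb against the length (bp) of the restriction fragment that holds the summit, in deserts and in the rest of the genome, for the untreated libraries, with satellites left out. Density is lowest on fragments under 500 bp in each library, and from 1000 to 3999 bp the desert line of a library lies above its line for the rest.

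RNH1 treatment left a peak at many desert sites. In untreated WT libraries 1314 of 6529 and 2473 of 6783 desert peaks, 20.1% and 36.5%, shared at least 1 base with an RNH1 peak of the same genotype and replicate number. Over all peaks of these lists the shares were 18.1% and 34.2%. In untreated MT libraries the shares were 54.8% (6118 of 11173) and 52.3% (6982 of 13340), against 50.9% and 48.8% over all peaks. MT exceeded WT by 25.3 percentage points (SE 8.26; two-sided exact permutation p = 0.333), and by 4.07 with all lists at one length. Desert peaks were overlapped more often than the other peaks of the same library in 4 of 4 cases, by 3.06 ± 0.91 percentage points (SD, n = 4; exact sign-flip p = 0.125, the smallest possible), and by 1.91 with GC weights.

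The length of the RNH1 list moved with these shares. Against the WT RNH1 list of the other number, WT replicates 1 and 2 had 35.7% and 20.5% of desert peaks overlapped, nearly the values exchanged. Against the MT RNH1 list of the same number they had 34.2% and 35.03%, and untreated MT desert peaks had 7.89% and 15.5% overlapped by WT RNH1 lists. Conversely, 69.7% and 65.2% of the WT and 62.7% and 71.3% of the MT RNH1 desert peaks lay on an untreated peak. The other 577 and 1316 peaks of the WT lists and 3618 and 2798 of the MT lists had no untreated partner.

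Desert peaks with an RNH1 partner were higher and wider than those without, the bona fide peaks. Over local background, overlapped peaks reached a median enrichment of 5.90 and 5.51 (WT) and 5.08 and 5.11 (MT), and bona fide peaks 4.27, 4.21, 3.99 and 3.92. The difference was 1.30 ± 0.23 (SD, n = 4; exact sign-flip p = 0.125). Median width was 555, 555, 468 and 486 bp against 418, 405, 385 and 378 bp. At the overlapped peaks, fold enrichment of the strongest overlapping RNH1 peak exceeded that before by a median of 0.021, 0.063, 0.16 and 0.086 on the log2 scale. Sites with no peak call after RNH1 have no value there and are not in these medians. By the usual formulas of the peak caller, median background at desert peaks was 3.66, 3.70, 3.81 and 4.80 fragments untreated. After RNH1 it was 2.14, 2.53, 3.30 and 3.01, so the log2 values are not changes in fragment number.

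**Figure D5:**
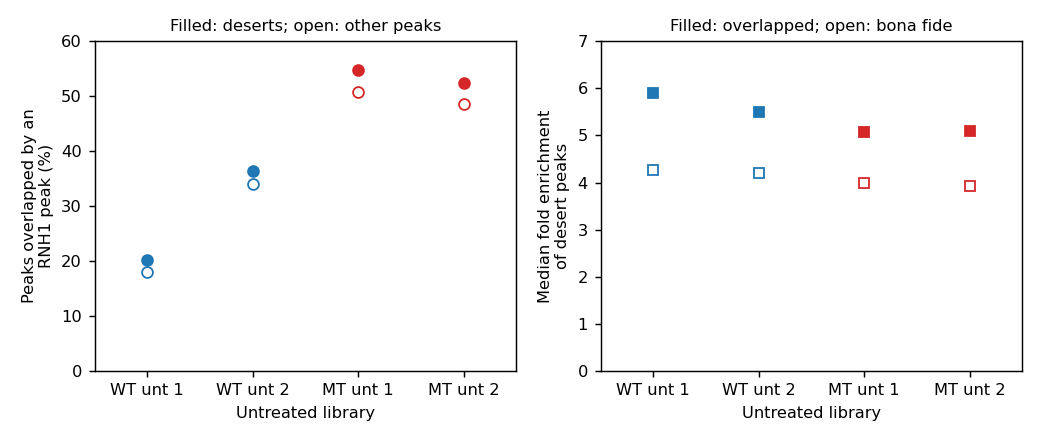
Left, share (%) of untreated peaks overlapped by an RNH1 peak, in deserts (filled) and elsewhere (open); right, median fold enrichment of overlapped (filled) and bona fide (open) desert peaks. Desert shares lie above the others in the 4 libraries, and overlapped peaks have the higher medians.

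Overlapped and bona fide desert peaks also differed in sequence. Outside satellites, windows in which at least 60% of bases were purines on either strand made up 34.3% and 32.5% of overlapped peaks in WT and 19.8% and 20.3% in MT cells. Among bona fide peaks they made up 21.2% and 20.7% in WT and 10.5% and 12.03% in MT cells, and in desert sequence 13.6%. Runs of at least 12 A or T bases were in 8.58%, 7.86%, 8.01% and 7.91% of overlapped peaks and in 4.54%, 4.24%, 5.13% and 5.37% of bona fide peaks. Repeated words had a median of 6.86% and 7.10% (WT) and 10.3% and 11.0% (MT) in overlapped peaks, against 5.15% to 5.34% in bona fide peaks. Over all desert peaks outside satellites the median was 16.5% and 15.8% for MT lists after RNH1, 7.34% and 7.74% for WT lists after RNH1, and 5.70% to 7.34% for untreated libraries. The greater width of overlapped peaks was not accounted for in these shares.

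After RNH1 subtraction 5215 and 4310 bona fide desert peaks were left in WT and 5055 and 6358 in MT libraries, and the genotypes overlapped. Bona fide here means an untreated peak that shares no base with the RNH1 list of its genotype and replicate number. The study called its own bona fide peaks over RNH1-treated samples, so these counts are not a check on that set. The log2 ratio of 0.26 (SE 0.22; exact permutation p = 0.667) was under the 0.88 before subtraction, and was −0.39 with lists of equal length. It was 0.086 and 0.13 without MT or WT untreated replicate 2, and 0.42 and 0.40 without MT or WT untreated replicate 1.

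Merged over the 8 lists, 550 of 22561 desert regions, 2.44%, had a peak in each list, against 2.2% of all regions. In all 4 untreated lists 2031 regions, 9.002%, had a peak, against 8.93%. Peaks in both untreated MT lists and no WT list were found at 5409 desert regions, 24.0%, against 25.4% of all regions. The converse, both untreated WT lists and no MT list, was found at 1966, 8.71%, against 6.34%. The counts fell to 741 in MT and 1099 in WT with lists of equal length, so that WT had the larger number. Without MT untreated replicate 1, 8687 were MT alone, and without WT untreated replicate 1, 2956 were WT alone. An RNH1 peak of the same genotype was present at 62.6% of the MT-only and 34.1% of the WT-only desert regions, against 58.5% and 29.2% of such regions genome-wide.

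The highest region with a peak in all 4 untreated and no RNH1 list was chr10:128606395-128607810, whose nearest gene is an unnamed long noncoding RNA gene 286 kb away. There WT libraries reached fold enrichments of 11.9 and 12.5 and MT libraries of 6.27 and 6.04, higher in both WT libraries. The order was the other way at chr4:179268782-179269513, with 6.03 and 6.22 in WT and 11.1 and 10.4 in MT. At chr13:56587660-56588030 the values overlapped, with 8.70 and 9.74 in WT and 9.08 and 7.29 in MT. They overlapped also at chr7:125800701-125801707 (8.88 and 8.78 in WT, 7.31 and 9.16 in MT). At chr7:41263830-41264406, between LINC01449, 130.3 kb away, and INHBA, which encodes an activin subunit, 403 kb away, WT libraries had 7.27 and 8.24 and MT libraries 9.75 and 8.41.

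Among regions of untreated MT alone, chosen for that pattern, chr3:191000254-191000625 had fold enrichments of 13.2 and 11.1 and lay between GMNC, which encodes a regulator of multiciliated cells, 108 kb away, and OSTN, which encodes a secreted peptide, 199 kb away. The next were 11.1 and 12.7 at chr18:30064295-30064642 and 11.5 and 12.1 at chr18:61194370-61194814, which lies 139 kb from the cadherin gene CDH20. Then followed 11.1 and 11.0 at chr12:83351890-83352243, and 10.1 and 11.5 at chr4:125079870-125080284, 235 kb from FAT4, which encodes a large protocadherin. Among those of untreated WT alone, chr9:81180583-81181234 had 11.9 and 11.9. At chr18:25638686-25639146, 286 kb from the zinc finger gene ZNF521, the values were 10.9 and 9.46. The others were at chr6:95272662-95273293 (9.44 and 10.7), chr4:60609278-60609647 (8.71 and 11.4) and chr4:160228738-160229056 (9.77 and 10.3). GC content was 36.2% to 42.0% in the 5 MT regions and 28.2% to 37.5% in the 5 WT regions, which overlapped.

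The 5 highest regions in all 8 lists, by fold enrichment after RNH1, lay in satellite-rich sequence. The first, chr5:49601196-49602951, 793 kb from EMB, which encodes a membrane glycoprotein, had 23.8 and 25.2 (WT) and 24.9 and 23.5 (MT) untreated. After RNH1 it had 28.4 and 24.3 (WT) and 24.5 and 24.1 (MT). The groups overlapped. At chr16:34585673-34588625 the values were 24.2, 24.8, 19.8 and 19.1 untreated and 25.4, 21.7, 19.999 and 19.9 after RNH1, WT first, with each WT above each MT library. At chr1:125179742-125180442, which was also the region farthest from a gene among those in at least 4 lists, at 3599 kb, they were 11.3, 11.1, 16.5 and 17.7 untreated and 21.9, 15.3, 22.2 and 20.2 after RNH1, in the same order. There the untreated MT libraries lay above the WT libraries. The other highest were chr10:41858335-41862360 and chr16:34592723-34597151. The widest desert region, chr10:41873300-41881395, spanned 8096 bp with 63.0% repeated words at its highest peak. Of 533 satellite-rich merged regions 7.13% were in all 8 lists, against 2.32% of the other 22028.

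Outside satellites, the highest region in all 8 lists was chr13:81441710-81442624, 139 kb from a long noncoding RNA gene. It had 15.7 and 17.1 (WT) and 11.6 and 15.5 (MT) untreated, and 16.8 and 17.1 (WT) and 20.2 and 17.0 (MT) after RNH1. At chr13:90639530-90640667, 104 kb from LINC01049, the values were 4.51, 7.27, 8.50 and 9.59 untreated and 13.9, 14.0, 21.0 and 19.5 after RNH1, so that each RNH1 library lay above each untreated one. Regions in all 8 lists were ranked by fold enrichment after RNH1, so this order is not independent of how they were picked. The third, chr14:84374590-84375005, had 12.2 and 13.4 (WT) and 16.6 and 17.0 (MT) untreated, and 10.04 and 14.1 (WT) and 21.9 and 22.1 (MT) after RNH1. Each MT value there lay above each WT value. Outside satellites the region farthest from a gene with peaks in at least 4 lists was chr18:40795960-40796377, at 545 kb. It had a peak in the MT lists alone, with 3.54 and 4.40 untreated and 3.36 and 3.24 after RNH1.

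Peak height, width and sharing between replicates were also set against those of other peaks. Median fold enrichment was higher in deserts by 0.17 ± 0.055 (SD, n = 4; exact sign-flip p = 0.125), in 4 of 4 untreated libraries, with 4.51 and 4.61 in WT and 4.50 and 4.49 in MT deserts. Width differed by −8.25 ± 8.54 bp (exact p = 0.25), by −26.0 bp with lists of equal length and by −21.0 bp at a fold enrichment of at least 4 (exact p = 0.125 each). A desert peak was shared with the other untreated replicate in 73.3% and 70.4% of cases in WT and 82.2% and 68.6% in MT, 1.64 ± 1.97 percentage points more than other peaks (exact p = 0.25). Both values of a genotype describe the same overlap, seen from either replicate, so the 4 differences are not independent. The SD and the p-values for sharing treat them as if they were. The mean difference was 3.10 in WT and 0.18 in MT, and over all 4 libraries it was 0.21 with lists of equal length (exact p = 0.75) and 0.89 without WT untreated replicate 2. Depth is not given in the lists. If the lists follow the usual formulas of the peak caller, their statistics correspond to a median of 21 and 21 fragments (WT) and 23 and 27 (MT) at untreated desert summits, and 16 and 18 (WT) and 22 and 20 (MT) after RNH1. The lowest background of a library ranged from 1.62 fragments in WT RNH1 replicate 1 to 4.35 in MT untreated replicate 2.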

How the data were processed

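DRIP-seq peak lists of 8 Nalm-6 libraries were analysed, 2 for each genotype and treatment. Per the study's methods, the authors aligned reads to GRCh38 with BWA, removed mitochondrial reads and duplicates, and called peaks in each library with MACS2. The deposited lists give fold enrichment at the summit (a ratio over local background), −log10 p-value and −log10 q-value, a whole-number score and a summit offset. Methods state a q of 0.05, but the deposited lists held q values of at most 0.01. They hold no reads, so depth is unknown, and no input control. Peaks outside chromosomes 1 to 22 and X were left out.

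Distances were taken to gene records of GENCODE 44. Bona fide peaks and merged regions (1 shared base) were computed here with Python 3.11.15, numpy 2.4.6 and pandas 2.3.3. Satellite-rich regions were bins of 10000 bp with at least 3 CENP-B boxes or 200 GGAAT or ATTCC units, merged over 1500000 bp. Repeated words were 16-base words found at least 50 times. Two-sided exact permutation tests over libraries compared the groups, and sign flips over the 4 untreated libraries compared desert with other peaks, with no adjustment, since no p could fall under 0.05. The scripts were tested on simulated data.

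Regions were named by rule: the 5 of highest mean fold enrichment in each of 4 patterns (all 4 untreated and no RNH1 list, untreated MT alone, untreated WT alone, all 8 lists), the widest, the 5 farthest from a gene in at least 4 lists, and the 5 gene-free intervals of at least 500 kb with the most and the fewest regions per Mb, each also without satellites. The mean was taken over the untreated lists of a pattern, and over the 4 RNH1 lists for regions in all 8. Members, lists and rule were chosen with earlier results of these data known. The HEK293T RNA-Seq table was not used here. Alternatives were distances of 50 and 200 kb, protein-coding genes alone, no satellites, fold enrichment of at least 4, lists of equal length, GC weights, other RNH1 lists, covering at least 50% of a peak, and leaving out each library.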

Additional observations from a re-analysis of the deposited data

How the results depend on the processing

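With 2 libraries a group, no test could pass 0.05, so the values below concern direction and size. Among the values under other settings, 10 changed sign and 11 counts of regions moved by over 1.5 times. The other 184 kept their direction or, for counts of regions, stayed within 1.5 times. Of these 184, 41 were over 1.5 times larger or smaller, and 15 came from the replicate block, which leaves each value as it was. Lists of equal length gave log2 ratios of MT over WT of −0.28 (untreated), −0.15 (RNH1) and −0.39 (bona fide). For the untreated and RNH1 values, counts then stand for shares, so these sign changes are not separate from the share differences. GC weights turned the share difference to 0.36 in untreated and 0.36 in RNH1-treated DNA, and with satellites also left out, a setting chosen after seeing the data, to 0.32. The untreated share difference was −1.18 at 50 kb, −0.21 at 200 kb and −2.57 with protein-coding genes alone, and that after RNH1 −0.50 at a fold enrichment of at least 4 and −0.55 with lists of equal length. The MT difference between RNH1-treated and untreated DNA went from 0.13 at 200 kb to 1.55 with protein-coding genes alone. The WT share difference between RNH1-treated and untreated DNA was 0.031 at 200 kb and ranged from −0.34 to 0.22 over the libraries left out. Desert over rest density was −0.091 at 50 kb, −1.40 at 200 kb, −0.23 with lists of equal length, 0.13 with protein-coding genes alone and 0.20 without satellites. Desert regions in MT alone were 12910 at 50 kb, 1361 at 200 kb, 36358 with protein-coding genes alone, 3582 at a fold enrichment of at least 4, 741 with lists of equal length, and from 5438 to 8687 with a library left out. Those in WT alone were 4189 at 50 kb, 486 at 200 kb, 11342 with protein-coding genes alone, 1099 with lists of equal length, and from 2018 to 2956 with a library left out. The causes of these changes were not tested.

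Replicate numbers are shared by the groups. Deviations of same-numbered libraries did not go together over desert regions (correlations of −0.026 to 0.026 across regions, which are not independent). Only regions with a peak in every list compared were used, from 944 to 4791 of them. These correlations therefore do not show that pairing is absent. No pairing was assumed in the main tests, while RNH1 overlap was matched by number. With the number as a replicate block, the log2 ratio of desert peaks stayed at 0.88 and the share difference at −0.78. The block enters only the p-value (exact sign-flip p = 0.5, the smallest that 2 pairs allow). It leaves the means as they are, so this setting could not change a direction.

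Read totals are not in the lists, so counts cannot be adjusted for depth, and peaks near the threshold of the peak caller move with it. Satellite-rich sequence is made of repeated words, where the placement of reads is uncertain. Regions in a single genotype are presence and absence in lists, not measured differences.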
